A study of Mus musculus with 8 samples.

Results

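The nuclear genes for respiratory complexes II to V were compared between epididymal white adipose tissue (eWAT) of Abhd15 knockout (KO) mice and wild-type (WT) mice. A fixed list named 40 genes: 4 of complex II, 9 of complex III, cytochrome c, 11 of complex IV and 15 of complex V. Of these, 38 had a probe set annotated to that gene alone, out of 22180 genes with such a probe set on the array, and the brightest probe set over the 8 arrays stood for each gene. Uqcr10 and Cox6c lay on probe sets shared with a predicted gene and are described apart. Of the 38 genes, 36 passed the filter on low values and were tested; Atp5g1 and Atp5j2 did not.

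All mice were male, on a C57BL/6J background, fed normal chow, and 14 weeks old by the series design text. After a night of fasting, the mice were given chow again for 1 h and the fat was then frozen. The WT group held 3 mice and the KO group 5, with 1 Affymetrix mouse gene array per mouse, and arrays are named here by genotype and the replicate number of the label. KO mice lack Abhd15, whose product is a hydrolase-fold protein of adipocytes; the labels do not say how the allele was made.

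The respiratory chain of the inner mitochondrial membrane passes electrons from food to oxygen. Complex II (succinate dehydrogenase) takes them from succinate, complex III (cytochrome bc1) hands them from ubiquinol to cytochrome c, and complex IV (cytochrome c oxidase) gives them to oxygen, while complexes I, III and IV pump protons. Complex V (ATP synthase) lets the protons return through its membrane rotor and makes ATP in its F1 head. White fat carries few mitochondria compared with brown fat, but its adipocytes need them for fatty acid handling and for making glycerol phosphate. The subunits come from the nucleus, except for a small set made from mitochondrial DNA, which is not analysed here.

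The arrays held values for 41345 probe sets, with medians between 2.933 and 3.117 on the log2 scale, and any pair of arrays correlated over probe sets at r = 0.962 to 0.978. The brighter of 2 Abhd15 probe sets read 6.36, 6.45 and 6.14 in WT 1 to WT 3 and 5.77, 6.07, 6.27, 5.60 and 5.75 in KO 1 to KO 5, so the groups overlapped at KO 3. The dimmer one read 4.13, 4.505 and 4.07 in WT and 3.33, 3.65, 4.19, 3.21 and 3.31 in KO, and again only KO 3 reached the WT values. Where the probes lie relative to the deleted part is not given, so these values do not check the labels. Adipocyte markers were high in every mouse: the mean over 9 of the 10 listed was 10.1 to 10.31 in WT and 9.89 to 10.39 in KO. Brown adipocyte markers averaged 3.66 to 4.09 over all mice, and of the 4 that passed the filter 3 had a higher and 1 a lower mean in KO. Cidea among them read 3.38 to 3.77 in WT and 3.905 to 5.41 in KO, with WT 1 and WT 3 below the filter of 3.61. Its groups did not overlap, as in 8.53% of all tested genes. Testis markers averaged 5.93 in WT 1, 4.98 in WT 2 and 4.50 in KO 4, against 3.01 to 3.55 in the other mice. Epididymal and seminal vesicle markers averaged 3.69 in WT 1 and 5.08 in KO 4, against 2.02 to 2.41. The genes behind this differed: seminal vesicle genes in WT 1 (Svs2 6.38, Svs4 6.45, Svs5 7.425) and epididymal genes in KO 4 (Adam7 10.245, Rnase9 8.60, Lcn5 8.56). Endothelial markers averaged 7.75 to 8.06 in WT and 7.39 to 7.71 in KO, with a narrow gap and no overlap. Of these 8 genes, 7 had a lower mean in KO and 1, Vwf, a higher one. KO 5 had the lowest median over the tested genes, 5.93, against 6.035 to 6.068 in the others. In tissue RNA, fewer cells of a type and less RNA per cell cannot be told apart.

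Promoters of respiratory genes are known for sites of NRF1 and of GABP (also called NRF2, an ETS factor), which tie the nuclear genes of the chain together, and for YY1 and ESRRA sites. The letters GCGCANGCG (NRF1), CCGGAAG (GABPA), AAGATGGCG (YY1) and TCAAGGTCA (ESRRA) were searched on both strands of RefSeq promoters of 300 bases, from 250 before to 50 after the annotated start (build GRCm38.p6). The table held 34 promoters of 31 members. NRF1 letters stood in 13 of the 34 (38.2%) and in 2053 of all 32851 promoters (6.25%). GABPA letters stood in 12 (35.3%), against 8.86% of all promoters. YY1 and ESRRA letters each stood in 2 (5.88%), against 1.40% and 0.423%. At least 1 of the 4 stood in 20 (58.8%), against 15.2%. NRF1 matches on opposite strands can overlap, as in Atp5g2 and Atp5k, and such a promoter was counted once.

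**Figure D1:**
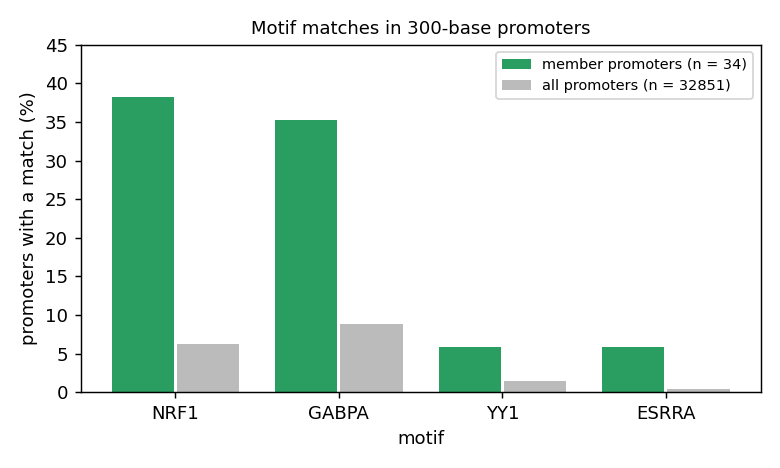
Share of 300-base promoters (y axis, percent) holding each motif's letters on either strand, for the members' 34 promoters (green) and all 32851 promoters (grey). NRF1 letters were in 38.2% against 6.25%, and GABPA letters in 35.3% against 8.86%.

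The promoters below carry the NRF1 and GABPA letters in 1 gene of each complex, followed by that of Cox7b, the member that varied most between mice and in which none of the 4 was found. Each is written 5′ to 3′ on the gene's strand, and capitals mark the matches. They lie at chr9:50603800-50604099 (minus strand) for Sdhd, chr10:80406772-80407071 (minus) for Uqcr11, chr5:115348909-115349208 (minus) for Cox6a1, chr11:115419870-115420169 (minus) for Atp5h and chrX:106015450-106015749 (plus) for Cox7b.
Sdhd: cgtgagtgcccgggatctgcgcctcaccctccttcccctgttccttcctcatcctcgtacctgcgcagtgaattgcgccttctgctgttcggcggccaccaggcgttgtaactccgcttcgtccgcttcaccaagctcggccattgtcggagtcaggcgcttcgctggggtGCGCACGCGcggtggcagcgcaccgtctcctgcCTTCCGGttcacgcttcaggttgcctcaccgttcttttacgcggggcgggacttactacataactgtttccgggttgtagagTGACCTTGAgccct
Uqcr11: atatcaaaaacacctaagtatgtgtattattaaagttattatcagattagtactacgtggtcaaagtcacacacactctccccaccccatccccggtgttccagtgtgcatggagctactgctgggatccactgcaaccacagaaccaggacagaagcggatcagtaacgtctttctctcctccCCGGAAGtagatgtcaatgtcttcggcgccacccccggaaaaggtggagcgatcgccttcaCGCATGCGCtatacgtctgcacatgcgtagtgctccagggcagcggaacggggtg
Cox6a1: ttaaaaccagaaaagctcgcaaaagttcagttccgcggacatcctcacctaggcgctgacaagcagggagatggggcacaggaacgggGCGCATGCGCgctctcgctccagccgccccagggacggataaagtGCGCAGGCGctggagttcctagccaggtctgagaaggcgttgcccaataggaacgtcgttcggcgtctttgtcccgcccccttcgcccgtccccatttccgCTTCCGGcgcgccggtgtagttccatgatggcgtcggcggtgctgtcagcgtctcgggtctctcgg
Atp5h: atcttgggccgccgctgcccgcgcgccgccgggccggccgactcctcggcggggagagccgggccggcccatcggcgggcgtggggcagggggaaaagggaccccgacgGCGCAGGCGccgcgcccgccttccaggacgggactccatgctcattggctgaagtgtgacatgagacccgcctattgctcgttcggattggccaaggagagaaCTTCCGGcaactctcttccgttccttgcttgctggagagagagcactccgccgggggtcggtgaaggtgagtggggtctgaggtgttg
Cox7b: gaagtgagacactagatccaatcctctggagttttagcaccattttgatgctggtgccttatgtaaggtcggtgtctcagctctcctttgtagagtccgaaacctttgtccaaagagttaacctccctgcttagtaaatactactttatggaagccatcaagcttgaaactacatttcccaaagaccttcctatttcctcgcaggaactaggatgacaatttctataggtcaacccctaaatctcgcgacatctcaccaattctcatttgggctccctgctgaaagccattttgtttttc

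In Sdhd the capitals are an NRF1, a GABPA and an ESRRA match, in order. In Uqcr11 the GABPA match comes first, 66 bases before the start, and the NRF1 match lies 5 bases before it. Cox6a1 has overlapping NRF1 matches on opposite strands, then another NRF1 match 117 bases before the start and a GABPA match 16 bases before it. In Atp5h the NRF1 match lies 141 and the GABPA match 38 bases before the start. A match is only a run of letters, and binding was not measured. Over the 20 members with a match to any of the 4, the median KO minus WT difference was 0.07 on the log2 scale, and over the 11 without it was -0.07.

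Messages for complexes II to V differed little between KO and WT fat. None of the 36 tested members passed an adjusted p of 0.05 in limma, as none of the 11090 tested genes did (0%). At an unadjusted p under 0.05 there were also 0 members, against 1164 genes (10.5%). The KO and WT values of 1 member, Atp5a1, did not overlap, against 8.53% of the tested genes. Of the 38 measured members, 22 had a higher mean in KO and 16 a lower one, with a median log2 difference of 0.03, beside -0.03 for all tested genes, of which 44.8% were higher. The differences ran from -0.46 (Atp5g1, not tested) to 0.25 (Sdhc). The replicate-block fit compares the 3 same-numbered pairs, a pairing that the labels do not state. With it, 28 of the 36 tested members were higher in KO and 8 lower, against 22 and 14 without it. Their median was 0.13, beside -0.01 for all tested genes. No member passed the adjusted threshold of limma in that fit either.

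The arrays bounded most of these differences. The 95% interval of limma reached 0.239 to 1.03 either side of the estimate, with a median of 0.331. For 31 of the 36 members the whole interval lay within a 1.5-fold change either way, 0.585 on the log2 scale, against 57.7% of all tested genes. The exceptions were Cox5a, Cox7b, Atp5d, Atp5e and Atp5o. With 3 mice against 5, an exact permutation test over the 56 divisions of the arrays cannot go below p = 0.0357. RMA, the method behind the deposited values, also compresses differences of dim probe sets.

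**Figure D2:**
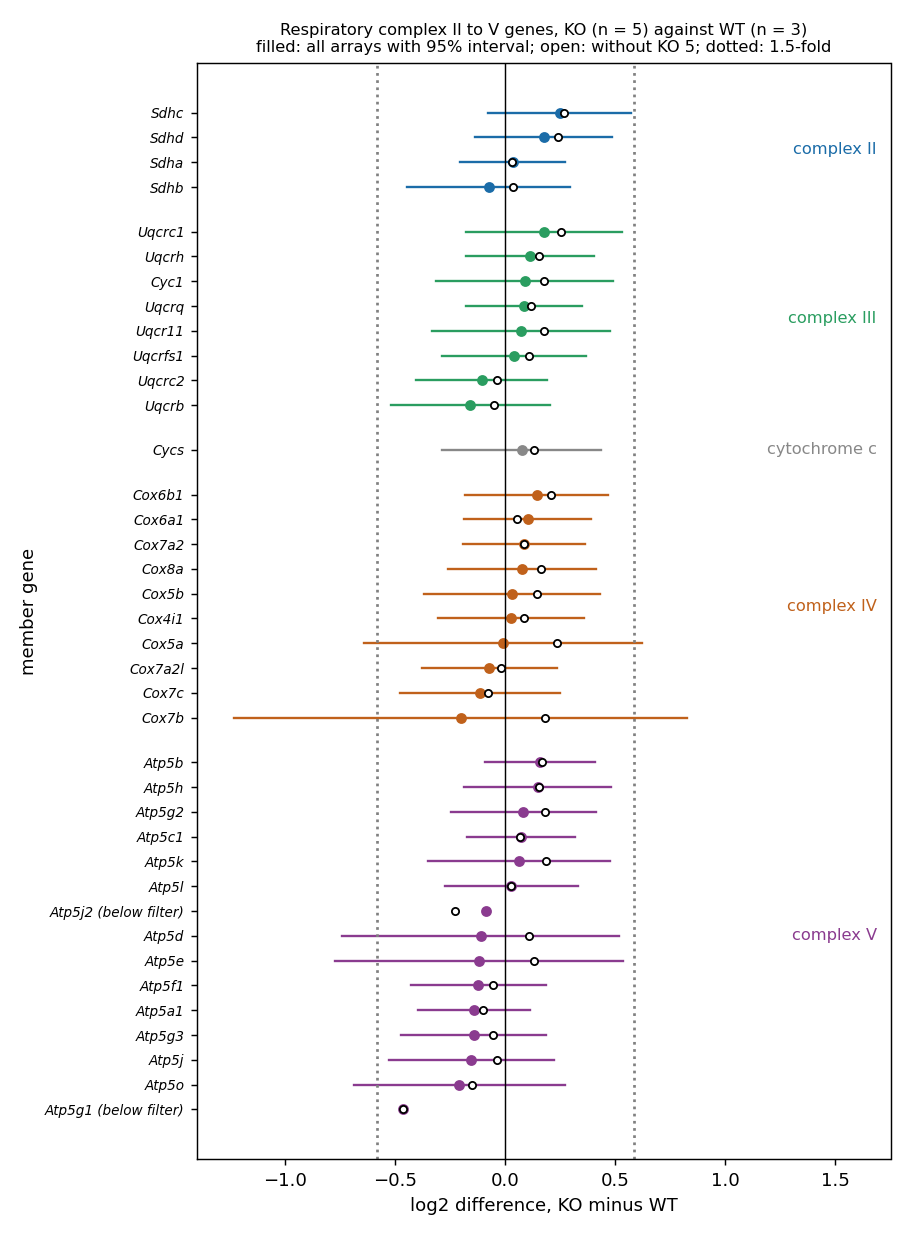
Log2 difference KO minus WT (x axis) of every measured member (y axis), with limma's 95% interval for the 36 tested ones; filled points use all 8 arrays and open points leave out KO 5. Of the 38 points 22 lie above 0, and 31 of the 36 intervals lie within the dotted lines of a 1.5-fold change.

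Complex II has only nuclear-encoded subunits and also belongs to the citrate cycle. Its membrane anchors had the largest positive differences of the 4 genes. Of these, 3 had a higher mean in KO, the median difference was 0.10, and limma's adjusted p ran from 0.579 to 0.936. Sdhc, an anchor that helps hold heme and ubiquinone, read 7.55, 7.62 and 7.69 in WT 1 to WT 3 and 8.17, 7.99, 7.78, 7.61 and 7.78 in KO 1 to KO 5. Of the KO mice, 4 lay above every WT mouse and KO 4 lay among them. The means were 7.62 ± 0.0725 (SD, n = 3) and 7.87 ± 0.215 (SD, n = 5), a log2 difference of 0.25 with a 95% interval of -0.08 to 0.57 (limma, adjusted p = 0.579; exact permutation p = 0.107). Without KO 1 and KO 2 it was 0.11. Sdhd, the other anchor, read 7.76 to 8.28 in KO against 7.77 to 7.92 in WT, a difference of 0.18 (adjusted p = 0.692 in limma).

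Sdha, the flavoprotein that oxidises succinate, was the steadiest gene of complex II. It read 10.60, 10.50 and 10.56 in WT and 10.53, 10.67, 10.56, 10.58 and 10.60 in KO, so the groups lay within each other. The difference was 0.03 with an interval of -0.20 to 0.27 (adjusted p = 0.936 in limma). Sdhb, the iron-sulfur subunit, read 8.20, 8.17 and 8.36 in WT and 8.38, 8.25, 8.37, 8.12 and 7.71 in KO. Its difference of -0.08 rested on KO 5, the only mouse below 8.12, and was 0.04 without it.

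Complex III genes overlapped between the groups in every case. Of its 8 measured genes, 6 had a higher mean in KO and 2 a lower one, with a median of 0.08 and adjusted p from 0.732 to 0.948 in limma. Uqcrc1, a core protein of the matrix side, read 8.91, 8.72 and 8.76 in WT and 9.16, 9.30, 8.83, 8.92 and 8.67 in KO. KO 1 and KO 2 lay above every other mouse and KO 5 below, which gave a difference of 0.18 (interval -0.18 to 0.53). The other core protein, Uqcrc2, differed by -0.11. Uqcrfs1, the Rieske iron-sulfur protein that takes electrons from ubiquinol, read 5.53, 5.43 and 5.12 in WT and 5.57, 5.44, 5.44, 5.42 and 5.12 in KO. Its groups covered nearly the same range, and the difference was 0.04 (interval -0.29 to 0.37). Cyc1, the cytochrome c1 that passes the electron on, differed by 0.09.

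Among the small subunits of complex III, Uqcrb, which lies near a ubiquinone site, had the most negative difference. It read 10.66, 10.54 and 10.56 in WT and 10.66, 10.48, 10.63, 10.38 and 9.998 in KO. KO 1 and KO 3 lay within the WT range, the other KO mice lay below it with KO 5 lowest, and the difference of -0.16 (adjusted p = 0.767 in limma) was -0.05 without KO 5. Uqcrq, Uqcrh and Uqcr11 differed by 0.08, 0.11 and 0.07. The probe set that Uqcr10 shares with Gm6293 read 6.24 ± 0.291 in WT and 6.13 ± 0.293 in KO (exact permutation p = 0.464). Cycs, the cytochrome c that carries electrons to complex IV and also triggers apoptosome assembly, read 9.61, 9.40 and 9.25 in WT and 9.69, 9.80, 9.29, 9.43 and 9.27 in KO. Its difference was 0.07 (adjusted p = 0.900 in limma), and its 4 other probe sets, of which 2 held identical values, differed by -0.09 to 0.01.

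Complex IV held the member that varied most between mice, Cox7b, and its genes had a median difference near 0. Of 10 measured genes, 6 had a higher and 4 a lower mean in KO, with a median of 0.03 and adjusted p of 0.768 to 0.993 in limma. Cox5a, which surrounds the catalytic core, read 7.41, 7.21 and 7.09 in WT and 7.44, 7.68, 7.34, 7.42 and 6.25 in KO. KO 1 to KO 4 lay above or within the WT values and KO 5 lay below every other mouse by more than 0.5. The means differed by -0.01 (interval -0.64 to 0.62), and without KO 5 it was 0.23 (limma, adjusted p = 0.443). Cox5b, a zinc-binding partner of Cox5a, read 7.48 to 7.53 in WT and 7.07 to 7.88 in KO, with KO 5 lowest and KO 2 highest.

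Cox7b, a small membrane subunit needed for assembly, read 7.61, 7.28 and 7.94 in WT and 8.08, 7.99, 7.98, 7.11 and 5.87 in KO. KO 1 to KO 3 lay above every WT mouse while KO 4 and KO 5 lay below every WT mouse. Its means were 7.61 ± 0.330 (SD, n = 3) and 7.41 ± 0.946 (SD, n = 5), a difference of -0.20 with an interval of -1.23 to 0.83 (adjusted p = 0.904 in limma). With the replicate number as a block, a fit to which KO 4 and KO 5 contribute no contrast, it was 0.41 at an unadjusted p under 0.05 (limma, adjusted p = 0.276). It was the only member there, 1 of 36, against 18% of tested genes. Its dimmer probe set lay below the filter on low values.

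Cox6b1, on the side that faces cytochrome c, had the largest positive difference of complex IV. It read 8.83, 8.82 and 8.63 in WT and 9.09, 9.14, 8.82, 8.80 and 8.65 in KO, so KO 1 and KO 2 alone exceeded WT, and the difference was 0.14 (adjusted p = 0.768 in limma). Cox6a1, the isoform of most tissues other than heart and skeletal muscle, read 11.90 to 12.23 in WT and 12.04 to 12.32 in KO, and here KO 5 was the highest mouse. Cox4i1, Cox7a2 and Cox8a differed by 0.03, 0.085 and 0.07, and Cox7c by -0.12. Cox7a2l, a factor that joins complexes III and IV into a supercomplex, differed by -0.07. The brighter of the probe sets that Cox6c shares with Gm6265 read 9.41 in KO 5 and 9.79 to 10.24 in the other mice, a difference of 0.12 (exact permutation p = 0.607).

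Complex V held the only member whose groups did not overlap, and its F1 genes pointed both ways. Of 15 measured genes, 6 had a higher mean in KO and 9 a lower one, with a median of -0.11 over all arrays and 0.03 without KO 5. Atp5a1, the alpha subunit of the F1 head, read 10.75, 10.785 and 10.78 in WT and 10.65, 10.67, 10.73, 10.64 and 10.46 in KO. Every KO mouse lay below every WT mouse. The means were 10.77 ± 0.0197 (SD, n = 3) and 10.63 ± 0.102 (SD, n = 5), a log2 difference of -0.14 with an interval of -0.40 to 0.11 (limma, adjusted p = 0.692). The exact permutation p was 0.0357, the smallest the design allows, which follows from the lack of overlap. Over the leave-one-out fits and the other alternatives the difference ran from -0.17 to -0.09. With groups that do not overlap, leaving out mice or pairing them cannot change its sign, so the kept sign adds no support.

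Atp5b, the beta subunit that holds the catalytic sites of the same head, read 11.85, 11.60 and 11.65 in WT and 11.88, 11.87, 11.87, 11.84 and 11.84 in KO. The 5 KO mice lay in a narrow band, WT 1 lay inside it, and WT 2 and WT 3 lay below it. The means were 11.70 ± 0.132 and 11.86 ± 0.0193, a difference of 0.16 with an interval of -0.09 to 0.41 (limma, adjusted p = 0.646; exact permutation p = 0.107). The head is built from alpha and beta in equal number, and here their messages differed from WT with opposite signs, neither past the threshold. Whether the difference of Atp5a1 differed from that of Atp5b was not tested.

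The remaining F1 genes form the central stalk. Atp5c1 (gamma) differed by 0.07. Atp5d (delta) read 8.499, 8.145 and 8.19 in WT and 8.725, 8.43, 8.39, 7.98 and 7.30 in KO. Atp5e (epsilon) read 6.88, 7.15 and 6.96 in WT and 7.33, 7.23, 6.86, 7.08 and 5.88 in KO. In these genes KO 1 was the highest mouse and KO 5 the lowest, by more than 0.5. Their differences of -0.11 and -0.12 were 0.11 and 0.13 without KO 5. The second probe set of each showed no such low value: for Atp5d KO 5 read 7.48 within 7.36 to 7.74, and for Atp5e 4.94 within 4.52 to 5.62. Those probe sets differed by 0.16 and 0.21 between KO and WT.

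The c ring, the rotor that protons turn, comes from Atp5g1, Atp5g2 and Atp5g3, which encode the same mature protein. Atp5g1 was below the filter and read 3.69, 2.80 and 3.93 in WT and 3.04, 3.18, 2.78, 3.03 and 3.02 in KO. WT 1 and WT 3 lay above every KO mouse and WT 2 lay among them, so the difference of -0.46 had an exact permutation p of 0.179. Atp5g2 differed by 0.08, with KO 5 at 9.84 and the others at 10.09 to 10.38. Its second probe set showed KO 5 at 9.22 against 9.79 to 10.06. Atp5g3 differed by -0.14.

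In the peripheral stalk, which keeps the head from turning with the rotor, Atp5f1, Atp5j and Atp5o differed by -0.12, -0.15 and -0.21 and Atp5h by 0.15. Atp5o, the subunit that ties the stalk to the head, had the largest negative difference among the tested genes of complex V. It read 4.445, 4.22 and 4.99 in WT and 4.505, 4.11, 4.205, 4.79 and 4.11 in KO, with WT 3 and KO 4 high and the other mice mixed (adjusted p = 0.770 in limma). Without WT 3 the difference of Atp5o was 0.01. Without the 3 mice with testis or epididymal markers (WT 1, WT 2 and KO 4) it was -0.76. That fit leaves WT 3, the highest mouse for this gene, alone in its group and takes the spread from the KO mice. The dimmer probe set of Atp5h differed by -0.63 (exact permutation p = 0.107), opposite in sign to the brighter one. The membrane genes Atp5k and Atp5l differed by 0.06 and 0.03, and Atp5j2, below the filter, by -0.09.

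Across mice, the members' median level was lowest in KO 5 and highest in KO 1. The median deviation of the 38 members from their gene means was 0.06, -0.07 and -0.01 in WT 1 to WT 3, 0.10 in KO 1, 0.07 in KO 2, 0.01 in KO 3, 0.01 in KO 4 and -0.25 in KO 5. Over all tested genes it was -0.09 in KO 5 and between -0.02 and 0.05 elsewhere. By complex, KO 5 stood at -0.09 for II, -0.29 for III, -0.24 for IV and -0.31 for V. KO 1 and KO 2 stood at 0.13 and 0.15 for II, 0.18 and 0.11 for III, 0.18 and 0.11 for IV, and 0.08 and 0.05 for V.

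**Figure D3:**
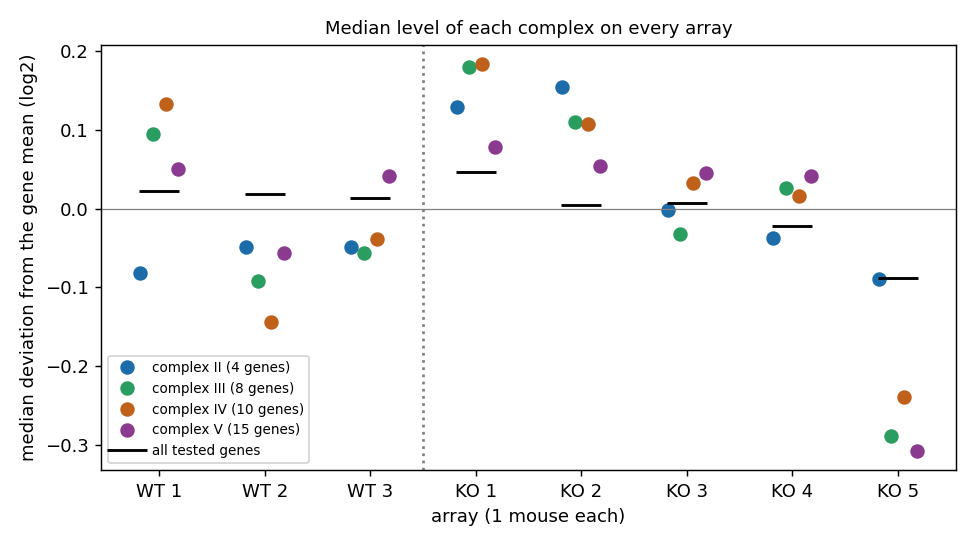
Median deviation of each complex's genes from their mean over the 8 arrays (y axis, log2) on each array (x axis), with black bars for all tested genes. Complexes II to IV stood at 0.11 to 0.18 in KO 1 and KO 2, and complexes III to V at -0.31 to -0.24 in KO 5, where all tested genes stood at -0.09.

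KO 5 had the lowest value of the 8 mice in 22 of the 36 tested members, against 28.9% of all tested genes. It lay more than 0.5 below every other mouse in 4 members, Cox7b, Cox5a, Atp5e and Atp5d, against 3.34%. With every array centred on the median of the tested genes, KO 5 was lowest in 15 of the 36, against 19.6%. KO 1 or KO 2 was the highest mouse in 20 of the 36, against 29%, and in 16, against 25.5%, after that centring. The spread between mice was larger in KO than in WT in 27 members, against 68.1% of tested genes, and without KO 5 in 20, against 58.3%. Without KO 5, 27 of the 38 members had a higher mean in KO and 11 a lower one, with a median of 0.11, and all tested genes had a median of -0.01. Without KO 1 and KO 2 the median of the tested members was -0.07, with 13 higher and 23 lower, beside -0.05 for all tested genes.

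**Figure D4:**
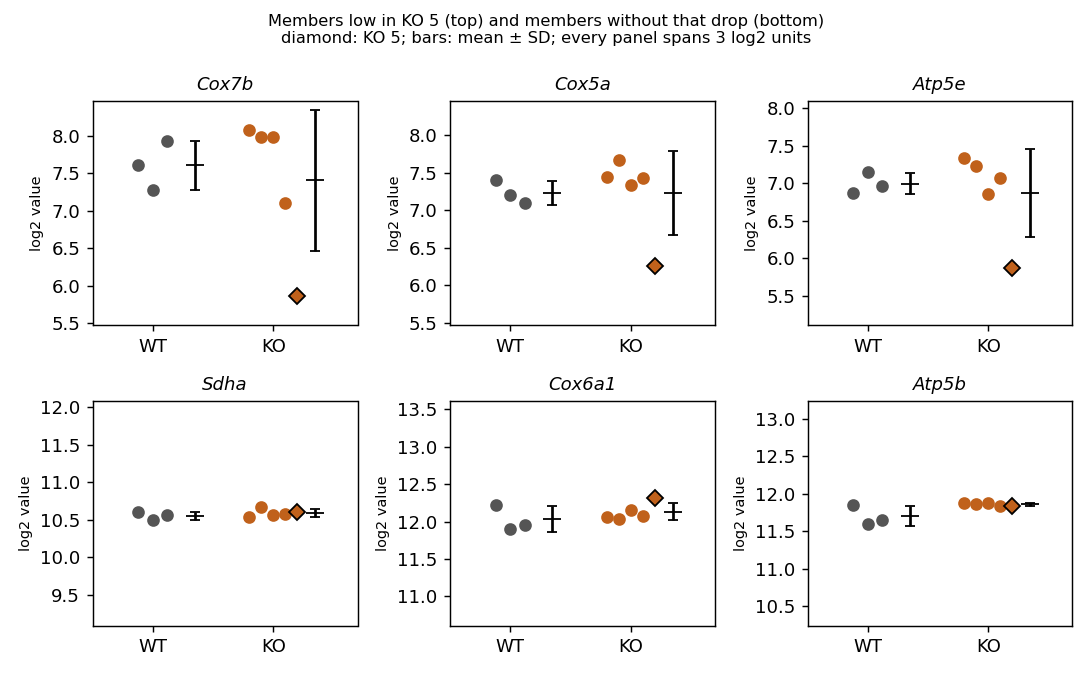
Log2 values (y axis) of WT and KO mice (x axis) for 3 members low in KO 5 (top) and 3 without that drop (bottom), chosen after their values were seen; diamonds are KO 5, bars the mean ± SD, and every panel spans 3 log2 units. KO 5 read 5.87 for Cox7b, 6.25 for Cox5a and 5.88 for Atp5e, and lay within or above the other KO mice for Sdha and Cox6a1 and at 11.84 for Atp5b.

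The low values in KO 5 did not extend to all members, nor were they limited to them. The median deviation in KO 5 was -0.26 for the assembly factors of these complexes and -0.18 for complex I, and -0.02 for mitochondrial content. KO 5 was the lowest mouse in 15 of 32 tested assembly factors, 11 of 31 complex I genes and 3 of 12 genes of mitochondrial content, against the 28.9% of all tested genes. Whether the members differed in this from those lists was not tested. Sdha, Atp5b, Atp5l, Atp5c1 and Cox7a2 lay in KO 5 within 0.03 of the mean of the other KO mice on the log2 scale, and Cox6a1 lay 0.238 above it. Some markers moved with KO 5 too. Of the 9 measured adipocyte markers, KO 5 was the lowest mouse in 4 and the highest in 0. Its Adipoq, the adipocyte hormone adiponectin, read 8.57 against 9.56 to 9.90 in the other mice, and Lipe, hormone-sensitive lipase, 7.70 against 8.08 to 8.502, with Pnpla2 and Pparg the other members of that list at their lowest. Fabp4, Cidec, Slc2a4, Plin1 and Lep were not lowest in KO 5. The mean of the adipocyte list was lowest in KO 5, at 9.89 with KO 4 next at 9.97. That of the fibroblast list was too, at 7.97 against 8.07 to 8.39, with KO 4 again next. Both gaps to KO 4 were smaller than that of the array medians over the tested genes (5.93 in KO 5, 6.035 in KO 4). The mean of the skeletal muscle list was highest in KO 5, at 3.875 against 3.39 to 3.73. Its Acta1 read 9.13 there against 5.87 to 7.98. Of the 10 genes of that list, 5 lay below the filter in every array, and KO 5 was highest in 4 and lowest in 1. The array of KO 5 had the lowest weight of the 8 when weights were estimated, 0.335 against 0.712 to 1.84. In KO 1 and KO 2, the only measured erythroid marker stood at 4.72 and 5.28 against 2.61 to 3.11. Cidea, of the brown adipocyte list, was also highest in them, at 5.41 and 5.14 against 3.38 to 4.11. The part of any of these in the members' values was not tested.

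Assembly factors build the complexes but are not part of them. Of 36 listed, 32 were tested; 18 had a higher and 14 a lower mean in KO, with a median of 0.09 and none past the adjusted threshold in limma. At an unadjusted p under 0.05, 1 was higher and 3 lower, 4 of 32, a share near the 10.5% of all tested genes. Coa7, a complex IV assembly factor, read 4.27, 3.935 and 4.32 in WT and 3.42, 3.69, 3.34, 3.85 and 3.53 in KO, without overlap, a difference of -0.61 (limma, adjusted p = 0.270). Its KO mean of 3.57 lay below the filter on low values (3.61), which the gene passed through its higher WT values. Coa6, which helps deliver copper to complex IV, read 5.40, 5.11 and 5.10 in WT and 5.60, 5.49, 5.74, 5.56 and 5.80 in KO, also without overlap, a difference of 0.43 (limma, adjusted p = 0.328). Ttc19, a complex III factor, and Sdhaf2, which adds the flavin to Sdha, differed by -0.38 and -0.29 (adjusted p of 0.360 and 0.453 in limma). The groups of Ttc19 did not overlap either, and 8.53% of all tested genes had no overlap.

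Other subunits and inhibitors left out of the member list numbered 7, all tested, 5 higher and 2 lower in KO, with a median of 0.22 and none at an unadjusted p under 0.05 in limma. Higd1a, Atpif1 (the inhibitor of ATP hydrolysis by complex V), Higd2a and Atp5mpl differed by 0.22, 0.23, 0.22 and 0.25. KO 5 was again low in some: Ndufa4, a complex IV subunit, read 9.13 there and 10.32 to 10.53 in the other mice, and Atp5md, of complex V, 8.85 against 9.64 to 9.996. Of 8 isoforms restricted to other tissues, 2 passed the filter. Cox8b, marked in brown fat and muscle, read 4.87, 4.39 and 4.76 in WT and 6.11, 5.635, 4.81, 5.01 and 4.505 in KO, highest in KO 1 and KO 2, and differed by 0.54 (adjusted p = 0.589 in limma). Cox7a1 differed by 0.22.

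Of 10 transcriptional regulators of respiration, 3 had a higher and 7 a lower mean in KO, with a median of -0.26. None passed the adjusted threshold in limma, and 2 of the 10 were lower at an unadjusted p under 0.05, against 10.5% of all tested genes in either direction. The same 2, Ppargc1b and Gabpb1, had no overlap between the groups, against 8.53%. Ppargc1b, a coactivator of mitochondrial genes, read 6.205, 5.67 and 6.07 in WT and 5.22, 4.975, 5.37, 5.13 and 5.62 in KO, with every KO mouse below every WT mouse. Its difference was -0.72 (limma, adjusted p = 0.254). Gabpb1, the partner subunit of GABPA, read 5.03, 4.69 and 4.85 in WT and 4.17, 4.435, 4.32, 4.59 and 4.40 in KO, also without overlap, a difference of -0.48 (limma, adjusted p = 0.309). Gabpa and Pprc1 differed by -0.28 and -0.35. The endothelial marker mean was lower in every KO mouse than in every WT mouse, but narrowly, at 7.71 in KO 5 and 7.75 in WT 1. Of its 8 genes, 7 had a lower and 1 a higher mean in KO. Pecam1, Cdh5 and Eng lay higher in KO 5 than in WT 1. The part of this mean in the values of the regulators and of Atp5a1 was not tested.

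Genes that stand for mitochondrial content (citrate synthase, import, channel, cristae, chaperonin and carrier genes) were split in direction. Of 12 measured, 6 were higher and 6 lower in KO, with a median of 0.02 and none at an unadjusted p under 0.05 in limma. Vdac1, the main outer membrane channel, read 9.14 to 9.20 in WT and 9.31 to 9.46 in KO, without overlap, a difference of 0.21 (limma, adjusted p = 0.527). The groups of Immt did not overlap either, but barely (up to 8.534 in WT, from 8.536 in KO), with a difference of 0.24. Of all tested genes, 8.53% had no overlap. Phb2 differed by 0.18 and Tomm40 by -0.27. Of 31 tested complex I genes, 23 were higher and 8 lower in KO, with a median of 0.08. Among all tested genes, 44.8% were higher. At an unadjusted p under 0.05 in limma there was 1 of the 31, against 10.5% of all tested genes. It was Ndufv1, which binds NADH, higher in KO by 0.32 (limma, adjusted p = 0.434). Ndufb3, Ndufa11 and Ndufb6 differed by 0.38, 0.31 and 0.27.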

How the data were processed

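Epididymal fat RNA of 8 male mice (3 WT, 5 KO) was measured with 1 array per mouse, 200 ng of total RNA each, and genotype and replicate number came from the sample titles. The deposited values are log2 expression per probe set, made by the authors with RMA (background correction, normalization and probe summary). The submitters' processing notes list RMA and oligo while the series design text lists Expression Console, so which tool made the values is unsettled. Neither versions nor a build were given in the sources used here. Values were used without renormalization. Precision is limited by the number of arrays.

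Names of probe sets came from the platform annotation: 23521 of 41345 had 1 symbol, 1814 several and 16010 none, and 23328 were matched by Entrez identifier to GRCm38.p6. Per gene the brightest probe set was kept, and genes with a mean of at least 3.61 (the median gene mean) entered the test (11090 genes). Differences between KO and WT were fitted with limma 3.58.1 in R 4.3.3 (lmFit, eBayes; two-sided; Benjamini-Hochberg adjustment over all genes in the fit), and single genes by an exact two-sided permutation test. Intervals are limma's 95% intervals. The procedure was tested on simulated data. Figures used matplotlib 3.10.9 (Python 3.11.15).

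The members and lists were chosen with earlier results of these data known. Values per mouse are given for members without overlap, for the largest difference in each direction in each complex, and for Sdha, Uqcrfs1, Cox5a and Atp5b. Of each list of other genes up to 4 with the smallest unadjusted p are named. Other details (Cox5b, Cox6a1, Atp5d, Atp5e, Ndufa4, Atp5md, single marker genes, the markers in KO 5) were chosen after values were seen.

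What the shared replicate numbers 1 to 3 stand for is not stated. Deviations of same-numbered WT and KO arrays from their group means correlated at 0.133, 0.103 and 0.192 over the tested genes. Since all exceeded 0.1, the numbers were taken to pair the arrays where the replicate block was used. Correlations of differently numbered arrays were not computed, so these weak values do not show a pairing, and the block fit assumes it. Alternatives were centring, quantile normalization, other filters, probe set means, array weights, a trended prior, the block, and leaving out arrays.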

Additional observations from a re-analysis of the deposited data

Results flagged for a closer look

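Among the 5 KO mice, 1 mouse stood apart from the others in 8 of 71 values examined, by a gap over the group's range above 0.71. Chance gives this in about 5% of groups of independent, normally distributed values. The values here are not independent: several flagged ones come from KO 5, and the medians share genes. The count of 8 can therefore not be read against that 5%. Of the 4 members among the 8, Cox5a stood at 6.25 in KO 5 with the next KO mouse at 7.335, Cox8a at 10.299 with the next at 10.70, and Atp5g2 at 9.839 with the next at 10.27. Atp5c1, the gamma subunit, stood apart in KO 1, at 4.934 with the next at 5.033. The median deviation in KO 5 was -0.307 for complex V with the next at 0.04, -0.246 for all measured members with the next at 0.01, and -0.478 for the other subunits and inhibitors with the next at 0.07. Phb2, a prohibitin of the inner membrane, stood apart in KO 4, at 8.675 with the next at 8.958.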

How the results depend on the processing

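No member passed the adjusted threshold of limma under any of 19 alternatives, of which centring on the tested genes was added after seeing the data, and the smallest adjusted p of a member was 0.276 (Cox7b, replicate block). The sign of 19 of the 36 tested members changed under at least 1 alternative. Members at an unadjusted p under 0.05 in limma numbered 1 with the replicate block (Cox7b), 1 without WT 1, WT 2 and KO 4 (Atp5o), and 0 otherwise. The fit without those 3 mice leaves WT 3 alone and assumes that it varies like the KO mice. The median of the tested members ran from -0.07 to 0.13. That of complex V was 0.047 with array weights and 0.0763 with the replicate block, 0.02 with probe set means, -0.16 without KO 1 and KO 2, and -0.15 to 0.069 leaving out 1 mouse each, the highest without KO 5. Complex II ran from 0.05 to 0.16, III from -0.05 to 0.14 and IV from -0.05 to 0.13, all lowest without KO 1 and KO 2 and highest with the block. Of all tested genes, limma called 40 with array weights, 2 with the replicate block, 3 with a trended robust prior, 5 without KO 5, and 0 to 5 over the leave-one-out fits. Genes at an unadjusted p under 0.05 in limma numbered 1164 of 11090 (38.5% higher in KO). They numbered 745 without WT 1, 1873 with array weights and 1997 with the block. Without the filter there were 1871, but out of all 22180 genes. The share higher was 48.7% after centring, on all probe sets or on the tested genes, 54.5% after quantile normalization and 53.6% with the block. KO 4 and KO 5 contribute no contrast to the block fit. The cause of these shifts in the share was not tested. Atp5g1 and Atp5j2 were too dim to be tested.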
